A study of Drosophila melanogaster with 24 samples.

Results

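A set of 7 genes of the Drosophila heat shock chaperone system was followed through 24 RNA-seq libraries, chosen by symbol from 17872 annotated gene symbols. They were the stress-inducible Hsp70 gene Hsp68, the Hsp90 gene Hsp83, the J protein gene DnaJ-1, the BAG co-chaperone gene stv (starvin), the cytosolic Hsp70 cognate Hsc70-4, the mitochondrial Hsp70 cognate Hsc70-5, and Hsf, the gene of the heat shock transcription factor. All 7 were listed above 0 in all 24 libraries. The libraries formed 7 groups, and values are the authors' TPM, a level per gene length and per library.

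The midgut set held 3 groups of 4 libraries, each carrying a temperature-sensitive driver of the stem cell gene esg. This driver works in gut stem cells and in enteroblasts, which descend from them. It was combined with lacZ, a neutral transgene, in flies of 10 days and of 30 days, and with an RNAi construct against Adar in flies of 10 days. Adar encodes the enzyme that edits adenosines in RNA. The second set held 4 groups of 3 libraries, libraries labelled as a knockdown of the RNA-binding protein gene Zn72D with their control and a set titled E374A, for a changed ADAR protein overexpressed in the midgut, with its own control. Its drivers and ages, and the culture temperatures of all groups, were not given in the sources used here. The labels do not say whether replicates came from different animals or cultures. The p-values therefore describe only the spread between these libraries, which may be technical. The questions were how expression in midgut stem cells differs with age and after changes in ADAR or Zn72D.

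Hsp70 proteins bind unfolded stretches of other proteins and release them in cycles of ATP hydrolysis. J proteins such as DnaJ-1 deliver substrates and start the hydrolysis, and BAG proteins such as starvin help to release the nucleotide. Hsp90 acts later, on nearly folded clients such as kinases and receptors. In flies, heat or unfolded protein activates Hsf, which binds the promoters of the inducible genes within minutes, while the cognate genes are transcribed at steady levels in unstressed cells.

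On genome build dm6, Hsp68 (FBgn0001230) was the gene at chromosome 3R, 24055080 to 24057310, on the minus strand. Its end overlapped CG6000 and lncRNA:CR44097, on the other strand, by 13 bases. Hsc70-4 (FBgn0266599) lay on 3R at 15242687 to 15246614, plus strand. Hsp83 (FBgn0001233) lay on 3L at 3192969 to 3197059, plus strand, and shared 15 bases with CG14966 on the other strand. DnaJ-1 (FBgn0263106) lay on 3L at 5750029 to 5752189, minus strand, and stv (FBgn0086708) on 3L at 13477541 to 13483515, plus strand. Hsc70-5 (FBgn0001220) and Hsf (FBgn0001222) lay on 2R, at 14252598 to 14256192 and 18130303 to 18134634, both on the minus strand. The strand setting of the counting was not given, but the overlapping genes reached at most 30.0 TPM.

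Several libraries departed from their labels. The 3 libraries labelled E374A overexpression were also those of the Zn72D control, number for number, with coverage equal within 0.1% in 83.2% to 83.6% of genes and in at most 0.351% for other pairings. These 2 groups are therefore not independent. Adar stood at 879, 801 and 31.5 TPM in the libraries labelled E374A control 1 to 3 and at 14.5 to 17.2 TPM in those labelled overexpression, against the titles. The library labelled E374A control 3 was deposited in the format of the midgut set and resembled it, with 323 TPM of esg and 0.286 TPM of the muscle gene Mhc. The other 11 libraries of the second set are labelled whole organism, although the extract protocol describes sorted midgut stem cells. They had 9.05 to 22.8 TPM of esg and 67.0 to 176 TPM of Mhc, against 189 to 802 and at most 1.33 TPM in the midgut set. Their 8 enterocyte markers summed to 56538 to 76197 TPM, against 318 to 1797 TPM in the midgut set. In the midgut set these sums were 318 to 484 TPM in 10-day lacZ, 632 to 1208 TPM in 30-day lacZ and 522 to 1797 TPM in the Adar knockdown, so both groups lay above 10-day lacZ without overlap. Of the 8 markers, 3 were called higher with age and 4 in the Adar contrast, beside 4.29% and 3.74% of all genes. There also, 6 stem cell and enteroblast markers summed to 1339 to 2038 TPM in 10-day lacZ, 853 to 1140 TPM in 30-day lacZ and 703 to 1078 TPM in the Adar knockdown. Of these 6 markers, 1 was called lower with age and 3 in the Adar contrast, beside 15.4% and 16% of all genes. In the midgut set the muscle list summed to 699.9 to 1107 TPM, neuron markers to 25.9 to 103 TPM, hemocyte markers to at most 5.06 TPM and germline markers to at most 9.89 TPM. Nearly all of the muscle sum there was Tm1, at 688 to 1098 TPM. Each other gene of that list was at most 18.8 TPM in the midgut set. Adar was 7.78 to 23.5 TPM in its knockdown and 29.2 to 45.7 TPM in the 10-day lacZ libraries. Zn72D was 10.6, 17.9 and 15.999 TPM in its knockdown and 18.6, 18.1 and 16.9 TPM in its control. Library 2 of the labelled Zn72D knockdown thus lay inside the control range and library 3 just below it.

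Hsc70-4 and Hsc70-5 were even across the midgut set, whereas Hsp68 varied 4.89-fold to 78.8-fold between the libraries of one midgut group. The highest and lowest library of a midgut group differed 1.61-fold to 10.6-fold in Hsp83, 1.51-fold to 5.23-fold in DnaJ-1 and 2.13-fold to 2.32-fold in stv. Hsc70-4, the main cytosolic Hsp70, ranged from 2131 to 3427 TPM over the 12 midgut libraries. Hsc70-5, which imports and folds proteins in the mitochondrial matrix, ranged from 263 to 341 TPM. Hsf ranged from 40.0 to 77.0 TPM. Hsp68 ranged from 11.9 to 1315 TPM over the same libraries and Hsp83 from 178 to 2867 TPM. The SD of log2(TPM + 1) within groups was 1.87 for Hsp68, 1.04 for Hsp83, 0.69 for DnaJ-1 and 0.51 for stv, and the median of the 5742 genes that averaged 10 TPM or more was 0.37. Hsp68 was more variable than 99.6% of these genes, Hsp83 than 96.8%, DnaJ-1 than 89.7% and stv than 75.4%. For Hsf the share was 39.2%, for Hsc70-4 2.26% and for Hsc70-5 0.0871%, which placed these 2 cognates among the genes with the smallest spread. In the Zn72D set, the 4 inducible members were more variable than 97.3% to 99.6% of 5016 genes, and the 3 constitutive ones than 32.5% to 63.5%. TPM of the same RNA pool are shares, and in bulk libraries fewer cells of a type and less RNA per cell cannot be told apart.

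**Figure D1:**
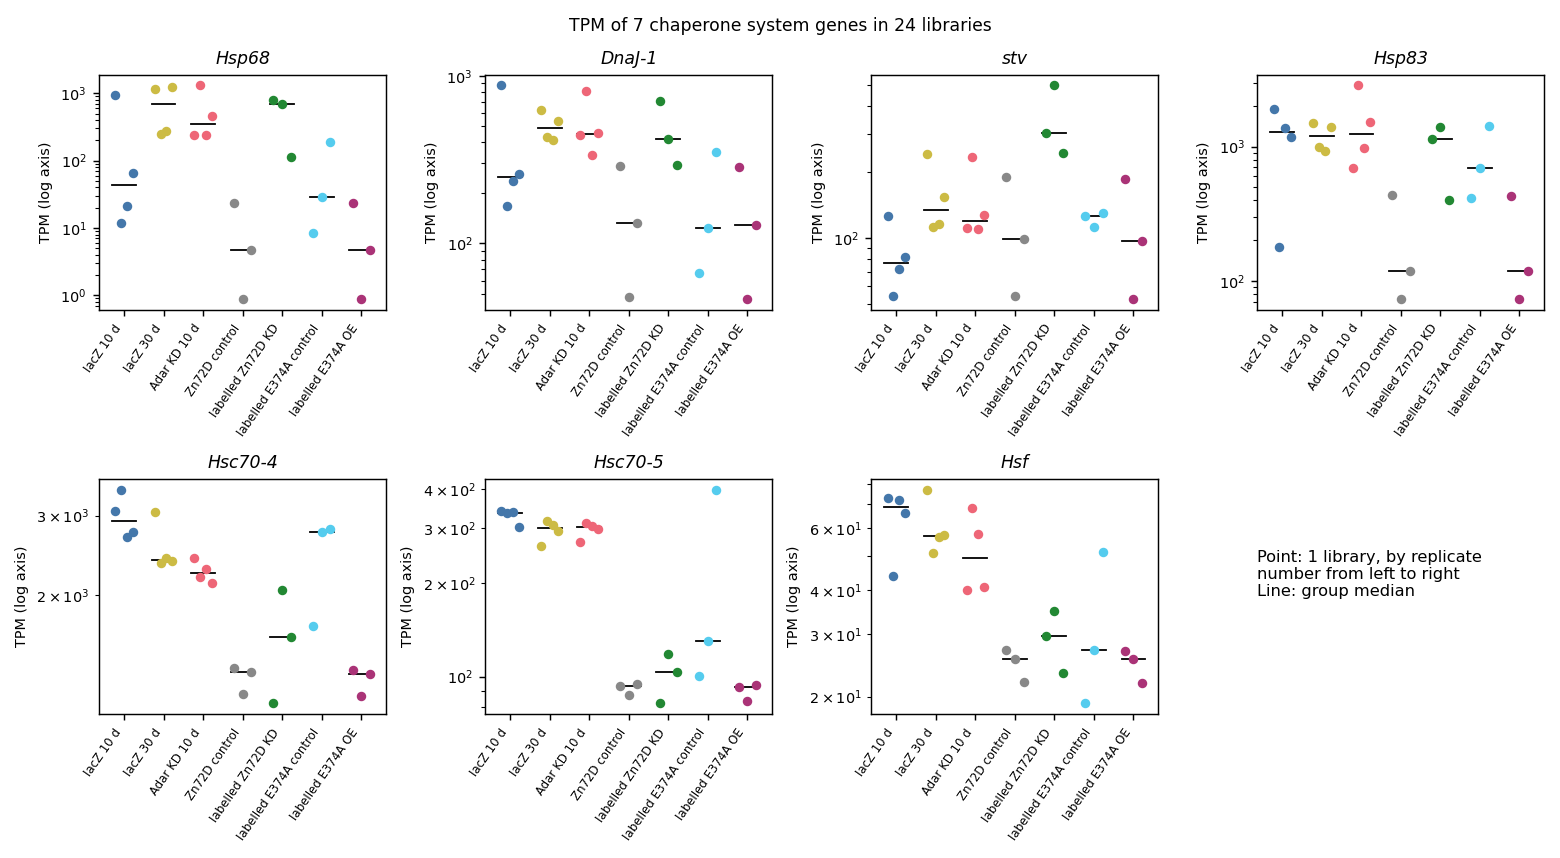
TPM of each of the 7 genes (log axis) in 24 libraries by group; points are libraries in the order of their replicate numbers and lines are group medians. Hsp68 spanned 11.9 to 938 TPM among the 10-day lacZ libraries, while Hsc70-5 stayed between 301 and 341 TPM; the labelled E374A overexpression points repeat the Zn72D control libraries.

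**Figure D2:**
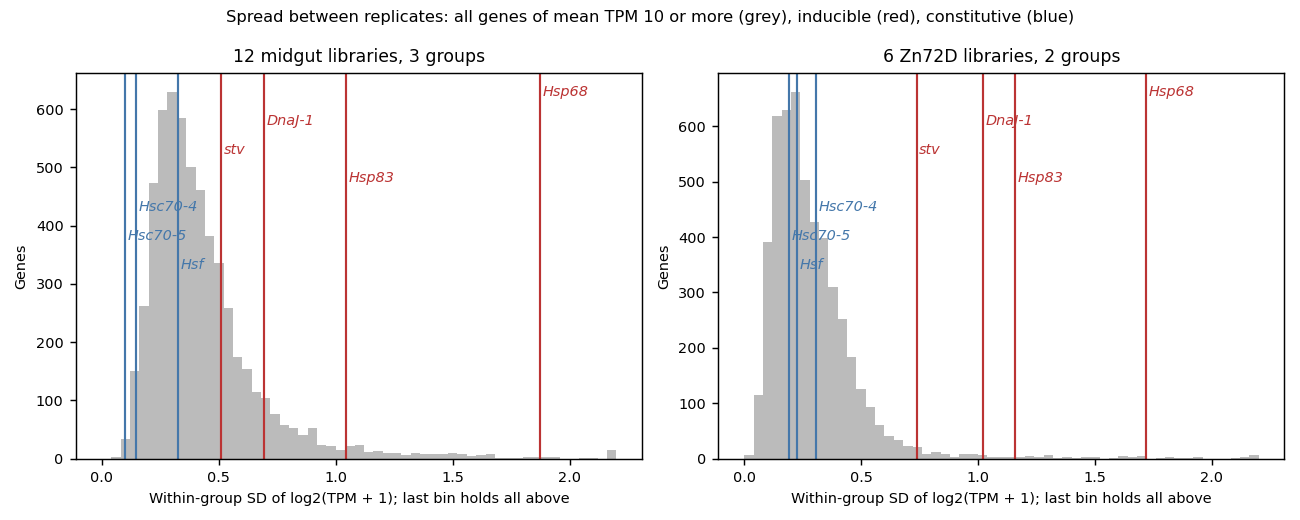
Histograms of the within-group SD of log2(TPM + 1) over all genes averaging 10 TPM or more, for the midgut set and the Zn72D set, with the inducible members in red and the constitutive members in blue. Hsp68 at 1.87 lay far to the right of the median of 0.37 in the midgut set, and Hsc70-5 at 0.098 at the left edge.

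Age was examined by comparing 30-day with 10-day lacZ libraries. In the 10-day libraries 1 to 4, Hsp68 was 938, 11.9, 21.0 and 66.02 TPM, and at 30 days it was 1137, 250, 271 and 1224 TPM. Of these, 3 of the 10-day libraries lay below all 30-day libraries, and the 10-day library 1 lay among the 30-day values. DnaJ-1 was 879, 168, 235 and 261 TPM at 10 days and 622, 433, 411 and 541 TPM at 30 days, with 10-day library 1 above all 30-day libraries and the other 10-day libraries below them. For stv the values were 125, 53.9, 72.1 and 81.8 TPM at 10 days and 241, 112, 115 and 154 TPM at 30 days, with 10-day library 1 inside the 30-day range. Hsp83 was 1891, 178, 1379 and 1169 TPM at 10 days and 1492, 996, 927 and 1395 TPM at 30 days. Its groups overlapped throughout, with library 2 the low one.

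None of the 7 members passed limma's test on log2(TPM + 1) over all genes at an adjusted p under 0.05, the threshold for a call, whereas 19.7% of the 8739 genes tested passed, 4.29% higher and 15.4% lower at 30 days. At an unadjusted p under 0.05, 2 members (Hsp68 and stv) and 37.7% of all genes passed. The log2 fold change of Hsp68 was 3.10 ± 1.18 (SE; limma adjusted p = 0.081), that of stv 0.89 ± 0.32 (adjusted p = 0.063) and that of DnaJ-1 0.68 ± 0.41 (adjusted p = 0.239). Hsp83 came to 0.45 ± 0.63 (limma adjusted p = 0.618). The median log2 fold change of all genes tested was −0.32, so relative to it Hsp68 lay at 3.42 and stv at 1.21. Mean Hsp68 was 259 ± 453 TPM (SD, n = 4) at 10 days and 721 ± 532 TPM (n = 4) at 30 days.

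The 3 constitutive genes overlapped between the ages and did not pass the test. Hsc70-4 was 3078, 3427, 2687 and 2761 TPM at 10 days and 3053, 2357, 2414 and 2379 TPM at 30 days, a log2 fold change of −0.23 ± 0.13 (limma adjusted p = 0.194). Hsc70-5 was 301 to 341 TPM at 10 days and 263 to 317 TPM at 30 days, with −0.16 ± 0.14 (limma adjusted p = 0.425). Hsf was 72.9, 43.9, 72.0 and 65.9 TPM at 10 days and 77.0, 51.0, 56.6 and 57.1 TPM at 30 days, with −0.06 ± 0.23 (limma adjusted p = 0.853). Relative to the median gene all 3 were slightly above 0, at 0.09, 0.17 and 0.26.

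With median-ratio scaling, which brings the median gene near 0, stv was called higher at 30 days at 1.18 ± 0.32 (limma adjusted p = 0.0364), against 5.15% of genes. Without 10-day lacZ library 1, 3 members passed, all higher at 30 days, where 4.42% of genes were called higher. Hsp68 rose by 4.38 ± 0.80 on the log2 scale (limma adjusted p = 0.0102), DnaJ-1 by 1.18 ± 0.27 (adjusted p = 0.0158) and stv by 1.10 ± 0.31 (adjusted p = 0.0332). Hsp83 remained short of the threshold at 0.83 ± 0.66 (limma adjusted p = 0.363). Library 1 also stood apart in markers of other cells. Its 5 fat body and yolk markers summed to 148 TPM, against 0.626 to 1.82 TPM in the other 10-day libraries and 6.40 to 35.5 TPM at 30 days. Yp1 alone, a yolk protein gene, was 90.9 TPM there. Its 10 enteroendocrine markers summed to 2617 TPM, against 300 to 308 TPM in the other 10-day libraries and 1063 to 1978 TPM at 30 days. With all libraries, 4 of these 10 markers were called higher at 30 days, beside 4.29% of all genes. Hsc70-3, the Hsp70 of the endoplasmic reticulum, was 1354 TPM in library 1 and 7695 to 12154 TPM in the other 3. The stem cell marker Delta was 110 TPM in library 1 and 3.23 to 7.90 TPM in those 3. Germline markers summed to 8.53 TPM, against 0.704 to 1.10 TPM. Hsp90 co-chaperone genes summed to 4329 TPM, against 2390 to 2483 TPM, and chaperonins to 3531 TPM, against 2279 to 2402 TPM. The non-coding lncRNA:roX1 was 10.4 TPM in library 1 and 10.5 TPM in 30-day library 1, but at most 0.445 TPM in other midgut libraries. Summed enterocyte markers, given above, were higher in all 30-day libraries than in the 10-day ones. Several single markers overlapped, and Myo31DF had a log2 fold change of 0.12 ± 0.32 (limma adjusted p = 0.794). The part of these cells in the values of Hsp68, DnaJ-1 and stv was not tested.

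The Adar knockdown was compared with the same 10-day lacZ libraries, so its contrast shares them with the age contrast. Hsp68 was 239, 1315, 239 and 463 TPM in the knockdown libraries 1 to 4, all above 3 of the 4 lacZ values and, except for library 2, below lacZ library 1. DnaJ-1 was 441, 807, 339 and 458 TPM and stv 111, 235, 110 and 127 TPM. Knockdown library 2 was the highest for both. Hsp83 was 694, 2867, 977 and 1524 TPM, inside or above the lacZ range.

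Of the 7 members 1, Hsc70-4, passed limma's test, lower in the knockdown, where 19.7% of genes passed, 3.74% higher and 16% lower. Hsc70-4 was 2420, 2191, 2285 and 2131 TPM, below all 4 lacZ values, as were 18.3% of genes tested. Its mean fell from 2988 ± 338 TPM (SD, n = 4) to 2257 ± 126 TPM (n = 4), a log2 fold change of −0.40 ± 0.13 (limma adjusted p = 0.0414). An exact permutation test gave p = 0.0286, and no smaller value can come from 4 libraries against 4. The median gene moved by −0.39, so Hsc70-4 lay at −0.01 relative to it, and with median-ratio scaling its value was −0.03 (limma adjusted p = 0.928). The call was lost in 15 of 16 alternative settings of scaling, filter, pseudocount or libraries, and in each fit with 1 library left out.

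Inducible members did not pass in the Adar contrast with all libraries. At an unadjusted p under 0.05, 3 members (Hsp68, Hsc70-4 and stv) and 39.1% of genes passed. Hsp68 had a log2 fold change of 2.74 ± 1.18 (limma adjusted p = 0.110), stv of 0.79 ± 0.32 (adjusted p = 0.0889), DnaJ-1 of 0.65 ± 0.41 (adjusted p = 0.249) and Hsp83 of 0.61 ± 0.63 (adjusted p = 0.484). Hsc70-5, at 270 to 312 TPM, had −0.15 ± 0.14 (limma adjusted p = 0.438), and Hsf, at 40.0 to 68.5 TPM, had −0.30 ± 0.23 (adjusted p = 0.339). With median-ratio scaling stv was called higher, at 1.16 ± 0.32 (limma adjusted p = 0.048), against 4.5% of genes. Without lacZ library 1, 3 members were called higher, against 4.57% of genes. These were Hsp68 at 4.02 ± 0.80 (limma adjusted p = 0.0112), DnaJ-1 at 1.15 ± 0.27 (adjusted p = 0.0147) and stv at 1.01 ± 0.31 (adjusted p = 0.0361). The fat body and yolk markers summed to 13.6 to 54.5 TPM in the knockdown, highest in library 1, where Lsp2 was 49.4 TPM and Hsp68 239 TPM. Yp1 was 33.4 and 27.6 TPM in knockdown libraries 2 and 4, which had the highest Hsp68, while the list summed to 43.6 and 40.8 TPM there. In 30-day lacZ libraries 1 and 4, Hsp68 was 1137 and 1224 TPM with 4.42 and 9.90 TPM of Yp1. Summed enterocyte markers were higher in all 4 knockdown libraries than in lacZ. Several single markers overlapped, and Myo31DF had a log2 fold change of −0.57 ± 0.32 (limma adjusted p = 0.195). The 10 enteroendocrine markers summed to 490 to 940 TPM in the knockdown and to 2617, 305, 308 and 300 TPM in lacZ libraries 1 to 4. Of these markers 0 were called in the Adar contrast, beside 19.7% of all genes. The part of the cells of these marker lists in the members' values was not tested. Without the 3 midgut libraries above 25 TPM of Yp1 (lacZ library 1 and knockdown libraries 2 and 4), no member was called in the Adar contrast, with Hsp68 at 3.17 ± 0.87 (limma adjusted p = 0.0663), against 1.38% of genes higher and 3.17% lower. In the age contrast the same 3 inducible members were called without them, where 5.26% of genes were called higher.

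**Figure D3:**
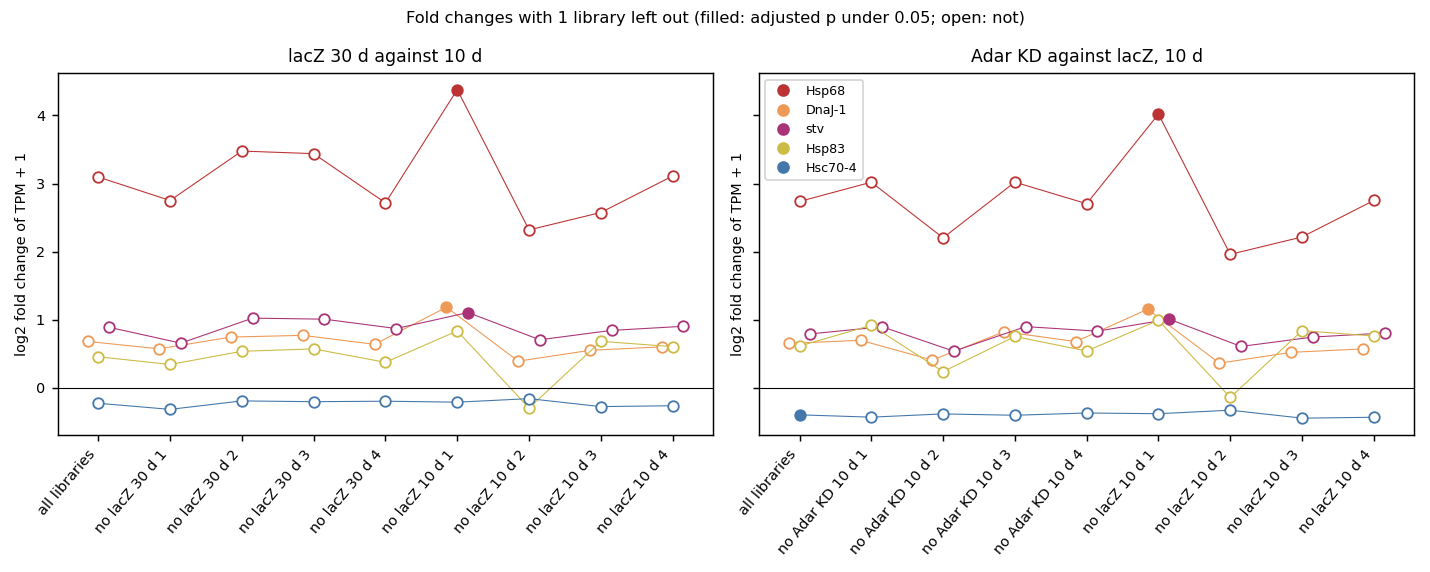
Log2 fold changes of TPM + 1 for 5 of the genes in the age and Adar contrasts, with all libraries and with 1 library left out in turn; filled points passed an adjusted p under 0.05. Among these fits Hsp68, DnaJ-1 and stv passed only without 10-day lacZ library 1, Hsc70-4 passed only in the Adar contrast with all libraries, and Hsp83 changed sign without 10-day lacZ library 2.

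In the libraries labelled Zn72D knockdown, the inducible genes had the largest fold changes of the members, with strong variation between libraries. Hsp68 was 23.5, 0.888 and 4.73 TPM in the control libraries 1 to 3 and 803, 695 and 113 TPM in the labelled knockdown, so the groups did not overlap. DnaJ-1 was 291, 47.5 and 132 TPM in the control and 704, 419 and 295 TPM in the labelled knockdown. The lowest labelled knockdown value of DnaJ-1 lay just above the highest control value. For stv the values were 190, 53.9 and 98.2 TPM in the control and 304, 500 and 244 TPM in the labelled knockdown, without overlap. Hsp83 was 433, 73.7 and 119 TPM in the control and 1144, 1405 and 398 TPM in the labelled knockdown, and the groups overlapped because labelled knockdown library 3 lay below control library 1.

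Of the 7 members, 3 were higher without overlap, against 8.53% of the 8478 genes tested. None passed limma's test, against 2.12% of genes, and 4 members (Hsp68, Hsp83, DnaJ-1 and stv) and 19.8% of genes had an unadjusted p under 0.05. The log2 fold change of Hsp68 was 5.96 ± 1.25 (limma adjusted p = 0.110), that of Hsp83 2.46 ± 0.83 (adjusted p = 0.210), that of DnaJ-1 1.85 ± 0.71 (adjusted p = 0.243) and that of stv 1.72 ± 0.47 (adjusted p = 0.133). For Hsp68, DnaJ-1 and stv an exact permutation test gave p = 0.1, and 3 libraries against 3 cannot go lower. Mean Hsp68 was 537 ± 371 TPM (SD, n = 3) in the labelled knockdown and 9.72 ± 12.1 TPM (n = 3) in the control. Leaving out single libraries moved the Hsp68 value between 5.08 and 6.93 with limma adjusted p from 0.055 to 0.310. Without control library 1, stv was called higher at 2.18 ± 0.36 (limma adjusted p = 0.0403), against 0.497% of genes.

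The constitutive genes of the Zn72D set overlapped between the groups. Hsc70-4 was 1380, 1207 and 1351 TPM in the control and 1151, 2055 and 1613 TPM in the labelled knockdown, with a log2 fold change of 0.25 ± 0.21 (limma adjusted p = 0.497). Hsc70-5 was 87.3 to 94.5 TPM in the control and 82.1 to 118 TPM in the labelled knockdown, with 0.13 ± 0.18 (limma adjusted p = 0.688). Hsf was 21.9 to 27.0 TPM and 23.3 to 34.9 TPM, with 0.22 ± 0.20 (limma adjusted p = 0.536). The median gene moved by −0.17. Fat body and yolk markers summed to 40.9 to 83.7 TPM in the control and 140 to 173 TPM in the labelled knockdown, and their part in these values was not tested.

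**Figure D4:**
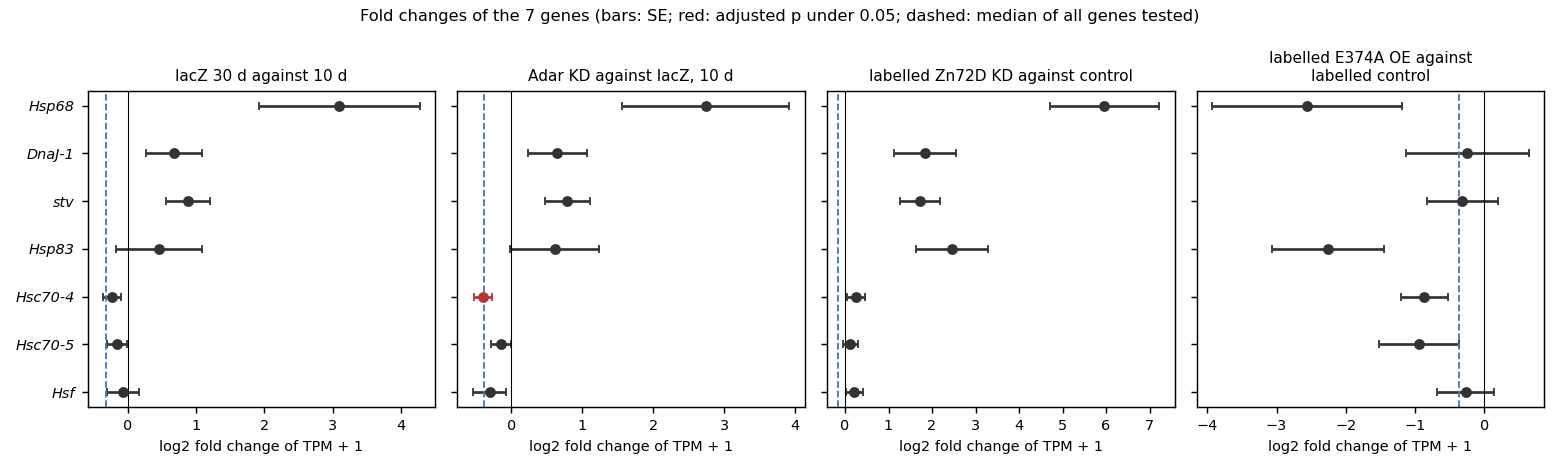
Log2 fold changes of TPM + 1 with SE for the 7 genes in 4 comparisons; the dashed line is the median of all genes tested and red marks an adjusted p under 0.05. Hsc70-4 in the Adar contrast was the only member in red and lay on the dashed line, while Hsp68 had the widest bars in each comparison.

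In the comparison titled E374A overexpression against control, no member passed limma's test, where 0.317% of the 8840 genes tested passed. At an unadjusted p under 0.05, 2 members (Hsp83 and Hsc70-4) and 5.97% of genes passed. Hsp68 was 8.34, 29.2 and 186 TPM in the libraries labelled control and 23.3, 0.881 and 4.69 TPM in those labelled overexpression. The highest value came from the library labelled control 3. Hsp83 was 414, 695 and 1421 TPM and 428, 73.0 and 118 TPM, and Hsc70-4 was 1711, 2763 and 2807 TPM and 1366, 1198 and 1340 TPM. Hsc70-4 and Hsc70-5 were lower without overlap in the libraries labelled overexpression, as were 16.1% of genes. The log2 fold changes were −2.55 ± 1.37 for Hsp68, −2.26 ± 0.81 for Hsp83 and −0.87 ± 0.34 for Hsc70-4 (each with a limma adjusted p of 0.583). Hsc70-5 had −0.94 ± 0.57, DnaJ-1 −0.24 ± 0.88, stv −0.32 ± 0.51 and Hsf −0.27 ± 0.42, with limma adjusted p from 0.583 to 0.872. Without the library labelled control 3, Hsp68 had −1.39 ± 1.36 (limma adjusted p = 0.649), Hsp83 −1.79 ± 0.91 (adjusted p = 0.416), Hsc70-4 −0.74 ± 0.22 (adjusted p = 0.131) and Hsc70-5 −0.35 ± 0.19 (adjusted p = 0.379), and DnaJ-1 changed sign to 0.40. Directions follow the titles, which the Adar values contradict.

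Over all groups, mean Hsp68 ran from 721 TPM in 30-day lacZ through 564 ± 512 TPM in the Adar knockdown (SD, n = 4), 537 TPM in the labelled Zn72D knockdown and 259 TPM in 10-day lacZ to 74.6 ± 97.3 TPM in the labelled E374A control (n = 3) and 9.72 TPM in the Zn72D control. Each neighbour in this order overlapped the next. The same held for all neighbours in the orders of the other members, except that stv in the labelled Zn72D knockdown, at 349 ± 134 TPM (n = 3), lay above 30-day lacZ, and Hsc70-4 in the Adar knockdown lay above the labelled Zn72D knockdown. The tables of both sets were scaled separately, with annotated genes summing to 881199 to 987040 in the assembled tables and to 997927 to 999158 in the others, so levels across them are a description only.

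The balance between the inducible and the constitutive genes followed from these levels. Since TPM is per length, the genes can be set against each other within a library. In the 10-day lacZ libraries, Hsp68 stood at 30.5, 0.348, 0.781 and 2.39 per 100 of Hsc70-4. The ratio was 37.3, 10.6, 11.2 and 51.4 per 100 at 30 days and 9.88, 60.02, 10.5 and 21.7 per 100 in the Adar knockdown. It was 1.71, 0.0736 and 0.350 in the Zn72D control and 69.8, 33.8 and 7.03 in the labelled Zn72D knockdown. Hsp68 thus remained below Hsc70-4 in all 24 libraries. The 4 inducible members made up 52.3%, 9.77%, 35.5% and 33.5% of the members' summed TPM in 10-day lacZ, 38.3% to 54.8% at 30 days, 35.2% to 67.0% in the Adar knockdown, 11.8% to 38.4% in the Zn72D control and 37.6% to 70.1% in the labelled Zn72D knockdown. Hsp83 was counted with Hsp68, DnaJ-1 and stv among the inducible members. In 10-day lacZ library 3, Hsp83 at 1379 TPM made up most of the inducible sum, beside 235 TPM of DnaJ-1, 72.1 TPM of stv and 21.0 TPM of Hsp68. In 10-day lacZ library 4, Hsp83 was 1169 TPM and Hsp68 66.02 TPM. The inducible share was thus not a measure of Hsp68 alone.

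Hsp68, DnaJ-1 and stv varied together over the 12 midgut libraries. Pearson's r of log2(TPM + 1) between Hsp68 and DnaJ-1 was 0.945 (permutation p = 1e-05, the smallest that 100000 permutations can give, 0.00024 adjusted over the 24 relations computed), and Spearman's rho was 0.923 (permutation p = 5e-05). After the group means were removed r was 0.957, and without the libraries farthest in Hsp68, 10-day lacZ 2 and 3, it was 0.899. Hsp68 and stv had r = 0.921 (permutation p = 3e-05, adjusted 0.00036) and rho = 0.972 (permutation p = 1e-05), and 0.862 without the same libraries. With Hsp83, Hsp68 had r = 0.703 (permutation p = 0.00876, adjusted 0.0311), rho = 0.727 (permutation p = 0.00972) and 0.680 without them. The link of Hsp83 with DnaJ-1 and stv, r = 0.746 (permutation p = 0.00309, adjusted 0.0185; rho = 0.748, permutation p = 0.00695) and r = 0.719 (permutation p = 0.00753, adjusted 0.0311; rho = 0.706, permutation p = 0.0128), rested on Adar knockdown library 2 and 10-day lacZ library 2, without which it fell to 0.410 and 0.279. These libraries share scaling and composition, and Hsp68 also correlated with Yp1 (r = 0.721, permutation p = 0.00908, adjusted 0.0311; rho = 0.853, permutation p = 0.00086; 0.754 without 10-day lacZ 2 and 3).

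With the constitutive genes Hsp68 had weaker correlations that did not pass over 12 libraries. Its r with Hsc70-4 was −0.416 (permutation p = 0.176, adjusted 0.325; rho = −0.371, permutation p = 0.236) and with Hsc70-5 −0.453 (permutation p = 0.138, adjusted 0.277; rho = −0.308, permutation p = 0.33). With Hsf, whose protein is activated after translation, r was 0.234 (permutation p = 0.463, adjusted 0.505; rho = 0.287, permutation p = 0.367). Without 10-day lacZ 2 and 3 these values were 0.070, −0.011 and 0.335. After the group means were removed they were 0.051, −0.058 and 0.568. For stv with Hsf r was 0.364 (permutation p = 0.246, adjusted 0.369; rho = 0.287, permutation p = 0.366), −0.036 without 30-day lacZ library 1 and 10-day lacZ library 2, and 0.783 after the group means were removed. Hsp83 with Hsf had r = 0.584 (permutation p = 0.0336, adjusted 0.0895) and rho = 0.587 (permutation p = 0.0491). Its r was 0.554 without Adar knockdown library 2 and 10-day lacZ library 2, and 0.779 after the group means were removed. DnaJ-1 with Hsf had r = 0.325 (permutation p = 0.3, adjusted 0.423), −0.026 without 10-day lacZ libraries 1 and 2, and 0.558 after the group means were removed.

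**Figure D5:**
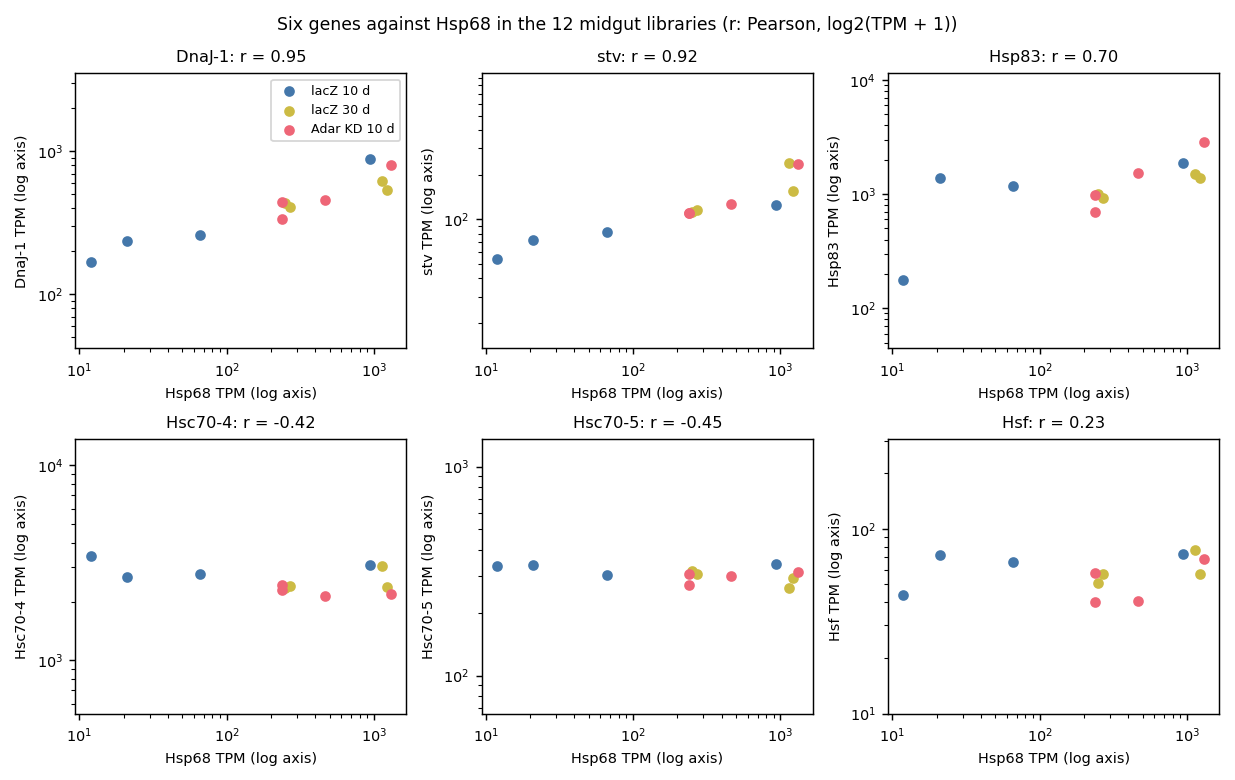
TPM of 6 members against Hsp68 TPM (both log axes) in the 12 midgut libraries, coloured by group, with Pearson's r of log2(TPM + 1). DnaJ-1 and stv were high where Hsp68 was high (r = 0.945 and 0.921), Hsp83 less closely (0.703, with 10-day lacZ libraries 3 and 4 high in Hsp83 alone), and Hsc70-4, Hsc70-5 and Hsf spanned narrow ranges.

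Genes whose pattern over the 12 midgut libraries was most like each member were sought among the 6798 genes averaging 5 TPM or more. For Hsp68 these were the small heat shock genes Hsp26 (r = 0.990) and Hsp27 (0.952), the major inducible Hsp70 copies Hsp70Ab and Hsp70Aa (0.971 each) and DnaJ-1. Reads of the Hsp70 copies cannot be split reliably, since their sequences are nearly identical. DnaJ-1 had Hsp26 (0.958), Hsp68, Hsp27 (0.945), Hsp70Ba (0.932) and Hsp70Bbb (0.931). The list of stv held Hsp26 (0.931), the lipocalin gene NLaz (0.922), Hsp68, Hsp27 (0.905) and Hsp70Ab (0.895). Hsp83 shared none of these. Its nearest genes were Cip4 (0.900), rgr (0.885), Vha100-1 (0.876), CrebA (0.868) and Tollo (0.864). Hsc70-4 was nearest to DIP1 (0.905), sesB, the mitochondrial adenine nucleotide carrier (0.900), the translation factor gene eIF3h (0.896), bic (0.878) and Polr2I (0.870). Hsc70-5 was nearest to the lamin gene Lam (0.898), dre4 (0.879), epsilonCOP (0.868), miple2 (0.868) and Septin1 (0.852), and Hsf to Sema5c (0.892), Btk (0.891), Pp2C1 (0.887), Ptpmeg2 (0.885) and sut1 (0.884).

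In the age, Adar and Zn72D comparisons the other inducible Hsp70 and small heat shock genes tested had positive fold changes, except Hsp70Bb in the Adar contrast (−0.23), and 1 call was made among them. Of 7 inducible Hsp70 genes, Hsp68 included, 0 were called by limma with age (19.7% of all genes) and 3 had an unadjusted p under 0.05 (37.7% of all genes), where the list's median log2 fold change was 1.30 beside −0.32 for all genes. The 3 were Hsp68 and the near-identical copies Hsp70Aa and Hsp70Ab, both at 2.39. Since reads of the copies cannot be split reliably, the 7 genes are not separate measurements in this count or those below. In the Adar contrast 0 of 7 were called (19.7% of all genes), 1 at an unadjusted p under 0.05 (39.1%), and the median was 0.66 beside −0.39 for all genes. In the libraries labelled Zn72D knockdown 0 of 7 were called (2.12% of all genes), and 7 had an unadjusted p under 0.05 (19.8%). All 7 of these genes were higher without overlap (8.53% of all genes), and the median was 4.12 beside −0.17. Hsp70Aa, the major inducible Hsp70, was 401 ± 542 TPM (SD, n = 4) at 10 days, 1145 ± 614 TPM (n = 4) at 30 days and 600 ± 403 TPM (n = 4) in the Adar knockdown. Its log2 fold change was 4.10 ± 1.40 (limma adjusted p = 0.220) in the libraries labelled Zn72D knockdown. Of 7 small heat shock genes tested, which encode chaperones that hold unfolded proteins without ATP, 0 were called with age and 4 had an unadjusted p under 0.05, with a median log2 fold change of 1.78. In the libraries labelled Zn72D knockdown 0 were called, 6 had an unadjusted p under 0.05 and 6 were higher without overlap, with a median of 5.36. In the Adar contrast 7 of 7 had an unadjusted p under 0.05, all higher, with a median of 2.08. The shares of all genes are those just given. Of these 1 was called in the Adar contrast, where 3.74% of all genes were called higher. It was Hsp23, at 388 ± 619 TPM in lacZ and 2838 ± 3115 TPM in the knockdown (SD, n = 4 each), a log2 fold change of 3.65 ± 0.96 (limma adjusted p = 0.0253). That call was lost in 7 of 16 alternatives, among them the fits without Adar knockdown library 2 or 4 and without 10-day lacZ library 3 or 4, and over the fits with 1 library left out the adjusted p ran up to 0.0849.

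Of the 76 genes tested in the 10 chaperone and stress lists, 10 were called lower with age, which is 13.2% of them beside 15.4% of all genes. Of 5 Hsp70 exchange and interaction factors, 3 were called lower, while stv, of the same list, had the positive value given above. Roe1, the mitochondrial nucleotide exchange factor that serves Hsc70-5, fell by 1.09 on the log2 scale, from 81.2 ± 10.9 to 37.7 ± 4.57 TPM (SD, n = 4 each; limma adjusted p = 0.00576). HIP and its related copy HIP-R, which stabilise Hsp70 with its substrate and between which reads may be split, had log2 fold changes of −0.95 and −0.99 (limma adjusted p = 0.0082 and 0.00712). Trap1, the mitochondrial Hsp90, was the 1 of 3 Hsp90 genes called, from 94.0 ± 17.5 to 40.3 ± 5.70 TPM (n = 4 each; log2 fold change −1.20 ± 0.21, limma adjusted p = 0.00559). Of 13 Hsp90 co-chaperone genes, 3 were called lower. They were spag (−1.29), Dpit47 (−0.82) and nudC (−0.77), with limma adjusted p of 0.00767, 0.0117 and 0.0278. Hsc70-5 itself had the −0.16 given above.

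Among 18 J protein genes, DnaJ-1 included, aux, which helps Hsc70-4 to strip clathrin from vesicles, was called lower with age (log2 fold change −0.84 ± 0.23, limma adjusted p = 0.0258). Of 4 genes listed with Hsf, 2 were called lower. They were Trl, the GAGA factor gene that keeps heat shock promoters open, at 221 ± 48.2 TPM at 10 days and 79.9 ± 9.79 TPM at 30 days (SD, n = 4 each; limma adjusted p = 0.0135), and CG5446, at −0.50 ± 0.17 (adjusted p = 0.0496). None of 4 constitutive Hsp70 genes (0 at an unadjusted p under 0.05) and 0 of 9 chaperonin genes (1 at an unadjusted p under 0.05) were called with age. Hsc70-3 had a log2 fold change of 0.89 ± 0.60 (limma adjusted p = 0.289), Hsp110 of −0.49 ± 0.24 (adjusted p = 0.145), Hsp60A of −0.09 ± 0.16 (adjusted p = 0.691) and CCT3 of −0.35 ± 0.22 (adjusted p = 0.248). The calls of Roe1, HIP-R, Trap1, spag and Trl held in all 16 alternatives of the age contrast, those of HIP and Dpit47 in 15, that of aux in 10, that of nudC in 7 and that of CG5446 in 3. The 10 lists held 2 genes called higher with age, 2.63% of the 76 tested beside 4.29% of all genes. Both were among 6 early response genes, which many stimuli switch on quickly. Of these sr rose from 0.209 ± 0.137 to 4.24 ± 2.26 TPM (SD, n = 4 each; limma adjusted p = 0.00481) and Gadd45 from 475 ± 34.3 to 903 ± 328 TPM (adjusted p = 0.0354), and the call of sr held in 16 of 16 alternatives and that of Gadd45 in 8. The part of such a response in the chaperone values was not tested.

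In the Adar contrast 9 of the 76 genes tested in the 10 lists, Hsc70-4 among them, were called lower, which is 11.8% of them beside 16% of all genes. Only 1, Hsp23, was called higher, 1.32% of them beside 3.74% of all genes. HIP-R had a log2 fold change of −1.11 (limma adjusted p = 0.00624), Roe1 of −1.11 (adjusted p = 0.00654), spag of −1.12 (adjusted p = 0.0149) and Dpit47 of −0.87 (adjusted p = 0.0112). Trap1 had −0.87 (limma adjusted p = 0.0176), Trl −1.43 (adjusted p = 0.0154), aux −0.76 (adjusted p = 0.0356) and Tpr2, a J protein gene with TPR repeats, −0.60 (adjusted p = 0.0353). These values and those of the age contrast share their 10-day libraries. The call of HIP-R held in all 16 alternatives of the Adar contrast, that of Roe1 in 15, Dpit47 in 14, spag in 13, Trap1 and Trl in 11, and aux and Tpr2 in 5. Of the early response genes 0 of 6 were called by limma, and 0 had an unadjusted p under 0.05. In the libraries labelled Zn72D knockdown, 1 of 16 J protein genes was called, where 0.885% of genes were called higher. CG7130, a gene with a J domain, was 12.5, 10.4 and 7.98 TPM in the control and 43.3, 49.6 and 18.4 TPM in the labelled knockdown (log2 fold change 1.66 ± 0.35, limma adjusted p = 0.0496), and the call was lost in 8 of 11 alternatives. In the same comparison 0 of 9 chaperonin genes were called, 3 had an unadjusted p under 0.05 (19.8% of all genes), and 4 were higher without overlap (8.53% of all genes). In the comparison titled E374A 0 genes of the 10 chaperone and stress lists were called by limma (0.317% of all genes). At an unadjusted p under 0.05 were 7 of 9 chaperonins and 4 of 13 Hsp90 co-chaperone genes, all lower, beside 5.97% of all genes. The J protein list held 0 of 16 such genes, and each remaining list held at most 1. These directions follow the titles, which the Adar values contradict, and the library labelled control 3 is included.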

How the data were processed

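The submitters' processing notes name STAR 2.7.1a, StringTie (version not given) and the build dm6. The authors deposited 1 gene table per library with coverage, FPKM and TPM. Per the file headers the TPM column is a scaled abundance. It sums to 1000000 in 11 tables, and in 13 assembled tables it is a signal in which annotated genes come on top of assembled loci. The deposited FPKM and coverage served only to compare libraries and to estimate depth from coverage, 3.397 to 7.742 gigabases per library. Read counts were not used here, so no counting interval is given.

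Members were matched by symbol, and 17751 of 17830 and 17078 of 17137 gene identifiers of the 2 formats were matched. limma 3.58.1 (R 4.3.3; trend, robust, statmod 1.5.0) was run on log2(TPM + 1) for genes averaging 1 TPM or more, two-sided, with Benjamini-Hochberg adjustment over all genes and calls under 0.05. Because of the added 1, fold changes of low genes come out too small. One fit held the 3 midgut groups, and each other comparison had its own. Exact permutation tests (scipy 1.17.1) were two-sided, 28 in all and unadjusted. Correlations used 100000 two-sided permutations over all 12 midgut libraries, without regard to the groups. Their p-values therefore also take in differences between groups. Python 3.11.15, pandas 2.3.3, numpy 2.4.6 and matplotlib 3.10.9 read and drew the data, and the fit was tested on simulated data. The members and the 10 chaperone and stress lists and 8 marker lists were chosen with earlier results of these data known. Of each list the text names up to 3 called genes per comparison and direction, or otherwise the 2 with the highest mean TPM. Alternatives were another pseudocount (0.1), no filter, median-ratio and total scaling, a replicate block, averaging of 10-day lacZ libraries 3 and 4, fits of 2 groups, and each library left out. Those averaged libraries were close in several genes, such as klu (233 and 228 TPM) and Zn72D (74.7 and 72.9 TPM), though Hsp68 was 21.0 and 66.02 TPM. So were 30-day lacZ libraries 2 and 3, as in Hsp70Aa (621 and 616 TPM). The main fits and the correlations counted all of these libraries separately. Leaving out the libraries high in Yp1 was chosen after seeing the data. A count test and a motif search in promoters were not run.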

Additional observations from a re-analysis of the deposited data

Results flagged for a closer look

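In the midgut set 21 groups of 4 libraries were examined, 1 per member and group. In 5, a library's gap to its nearest neighbour was too large a part of the group's range by Dixon's criterion on TPM. The criterion's rate of about 1 in 20 groups holds for normally distributed values and independent groups. The members were compared on the log scale elsewhere, and Hsp68, DnaJ-1 and stv varied together, so these 5 flags cannot be set against that rate. Whether the flags hold on log2(TPM + 1) was not tested. In 10-day lacZ library 1, Hsp68 was 937.8 TPM, with 66.02 TPM the next highest. In the same library DnaJ-1 was 878.8 TPM, with 261 TPM next. Hsc70-5 was 301.4 TPM in 10-day lacZ library 4, the lowest of its group, with 336 TPM next. Hsc70-4 was 3052.8 TPM in 30-day lacZ library 1, the highest of its group, with 2414 TPM next. For stv, Adar knockdown library 2 was the highest of its group with 234.8 TPM, and 127 TPM was next.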

How the results depend on the processing

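Of 378 recomputed fold changes of members, 333 kept their direction and side of the threshold, 18 reversed, 15 lost and 12 gained a call. Coverage per gene was deposited but read counts were not used, and 3 or 4 libraries per group limit every comparison. Median-ratio scaling brought the median gene near 0 (−0.05 instead of −0.32 with age, −0.05 instead of −0.39 for Adar) and reversed Hsc70-4 (0.070), Hsc70-5 (0.143) and Hsf (0.231) with age, Hsc70-5 (0.221) and Hsf (0.060) for Adar, and DnaJ-1 (0.094), stv (0.018) and Hsf (0.060) for E374A as titled. Under it stv was called, higher, with age (1.18) and for Adar (1.16), where 5.15% and 4.5% of genes were called higher. It left 777 genes called with age and 1 member, and 563 for Adar. Its calls were 450 higher and 327 lower with age (375 and 1349 as deposited), 393 and 170 for Adar (327 and 1396), and 115 and 108 for Zn72D (75 and 105). It gave 63 genes for E374A.

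Leaving out 1 library gave 0 to 3 called members and 745 to 1859 genes with age, 0 to 3 members and 427 to 2097 genes for Adar, 0 to 1 members and 54 to 591 genes for Zn72D (54 without labelled knockdown library 2, 591 without 3), and 0 members with 0 to 330 genes for E374A (330 without the library labelled control 3). Hsp83 ran from −0.30 to 0.83 with age and −0.14 to 0.99 for Adar, lowest without 10-day lacZ library 2. Hsf with age ran from −0.23 to 0.011, with 0.0093 without 10-day lacZ library 1 (and without the libraries high in Yp1), 0.011 without 30-day library 2 and 0.0033 without 10-day library 3. For E374A, DnaJ-1 ran from −0.87 to 0.43, stv from −0.78 to 0.13 and Hsf from −0.58 to 0.11. DnaJ-1 was 0.40 and Hsf 0.11 without the library labelled control 3, and DnaJ-1 0.43 and stv 0.13 without labelled overexpression library 2.

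No filter gave 1092 genes with age, 1047 and 0 members for Adar, 88 for Zn72D and 45 for E374A. Averaging libraries 3 and 4 gave 806 with age, and 442 with 0 members for Adar. For Adar, rescaling gave 1029 genes and 0 members, fitting 2 groups 816 and 0, and leaving out the libraries high in Yp1 393 and 0, against 3 members with age. The replicate block gave 1332 genes and 0 members with age, 1351 and 0 for Adar, 420 and 0 for Zn72D, and 9 and 0 for E374A. Deviations of same-numbered libraries correlated between −0.30 and 0.23 over all comparisons. Between 10-day and 30-day lacZ, they came to 0.228, 0.122, −0.079 and 0.217 for numbers 1 to 4. Different numbers gave −0.209 to 0.202 there. Values this weak cannot decide whether the numbers mark pairs. The cause of the differences between settings was not tested.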
